A study of Mus musculus with 6 samples.

Results

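Cluster 2 is a group of mature neutrophils in single-cell RNA sequencing (scRNA-seq) data from CD11b+ bone marrow cells of the mouse mandible and femur, set apart from the other neutrophils by its stefin transcripts. Its members are the cells that the authors' deposited clustering, at a resolution of 0.1, placed in cluster 2 in any of the 6 libraries, 9629 of 69776 cells (13.8%). All mice were C57Bl/6, 2 months old and of no other named genotype or treatment, and cells were taken from flushed marrow by binding to CD11b magnetic beads. The femur-derived group holds 3 libraries, library 1 from a female and libraries 2 and 3 from males, and the labels give both femurs and tibiae as the bones flushed. The mandibular-derived group holds 3 libraries, all male, from mandibles whose molars had been extracted and whose sockets were flushed as well as the marrow space. How many mice went into a library is not stated in the sources used here, so the spread between libraries may be partly technical, and a female mandibular library is not among the samples, so sex cannot be separated from femur library 1.

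Neutrophils mature in the marrow in stages: promyelocytes fill the primary granules, myelocytes and metamyelocytes the secondary granules with lactoferrin and cathelicidin, band cells the tertiary granules with gelatinase, and segmented cells then take up cytokine and chemoattractant receptors before leaving for the blood. Stefins are small intracellular inhibitors of cysteine proteases such as the cathepsins, and the mouse carries an expanded family of stefin A genes side by side on chromosome 16. Stefin A transcripts are known to be abundant in mature mouse neutrophils.

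The stefin A genes of cluster 2 share a stretch of promoter sequence, shown here because the summed levels of these genes were higher in cluster 2 than in cluster 1. Of the 18 symbols on the list of stefins and cystatins, 13 had counts and 5 were not analysed here, and 11 were matched by symbol to RefSeq promoters (GRCm38.p6, from 250 bases before to 50 bases after the gene's start), and 7 of the 11 held ACCTTTAAAACCC on the strand of the gene. This is the longest run that the promoters of Stfa1, Stfa2, Stfa2l1, Stfa3, Cstdc4 and Cstdc5 share, and both motifs were chosen after the sequences were seen. In 6 of the 7, GAGGAG stood 18 or 19 bases before it. Both motifs are in capitals in the 50-base windows that follow, each written 5′ to 3′ on the strand of its gene.

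Cstdc4: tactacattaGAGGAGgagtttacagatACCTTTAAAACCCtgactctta
Stfa2l1: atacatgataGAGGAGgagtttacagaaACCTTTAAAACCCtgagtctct
Stfa1: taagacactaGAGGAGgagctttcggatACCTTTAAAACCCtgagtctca
Cstdc5: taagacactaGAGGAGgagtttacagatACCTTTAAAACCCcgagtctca
Stfa3: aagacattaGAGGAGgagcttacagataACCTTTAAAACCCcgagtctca
Stfa2: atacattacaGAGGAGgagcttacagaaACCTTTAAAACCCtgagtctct
Csta3: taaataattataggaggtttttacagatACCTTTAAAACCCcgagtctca

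The windows lie at chr16:36184152-36184201 (Cstdc4, plus strand), chr16:36156747-36156796 (Stfa2l1, plus), chr16:36277087-36277136 (Stfa1, plus), chr16:36367561-36367610 (Cstdc5, minus), chr16:36455405-36455454 (Stfa3, minus), chr16:36408374-36408423 (Stfa2, minus) and chr16:36210295-36210344 (Csta3, plus). ACCTTTAAAACCC began 32 bases before the annotated start of Cstdc4, 36 before that of Stfa2l1, 33 before Stfa1, 34 before Stfa3, 32 before Stfa2, 12 before Cstdc5 and 80 before Csta3. Over all 32851 promoters of the same length it was found in 9 (0.0274%), both on the gene's strand and on either strand. GAGGAG is common, in 6531 promoters on the gene's strand (19.9%) and 11197 on either strand (34.1%). Position by position, the windows of Stfa2 and Stfa2l1 were identical at 47 of 50 bases, those of Stfa1 and Cstdc5 at 46 and those of Cstdc4 and Cstdc5 at 44, and the lowest pair, Stfa3 and Cstdc4, at 25. The identity of the counted transcripts was not measured here, and because paralogs of a multigene family can share reads, the level of any single stefin A gene is uncertain. Csta1, Csta2, Cst3 and Cst7 were matched and lacked ACCTTTAAAACCC in this window.

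The libraries held 1154, 2109 and 2971 cells of cluster 2 from the femur and 1318, 972 and 1105 from the mandible. Their counts of unique molecular identifiers (UMIs, each standing for 1 captured transcript) summed to between 6322406 and 17879675 per library. The median cell held between 5087 and 7106.5 UMIs, against 4591 over all cells of cluster 1 and 6999.5 over those of cluster 3, the other mature neutrophil clusters. A pair of libraries shared at most 1 cell barcode within cluster 2. Over the 9618 genes that passed the filter on low counts, the rank correlation between any 2 libraries was 0.964 or above, as a description over genes.

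The neutrophil label fitted the deposited reference labels and the markers. It differs from the study's own naming, which describes clusters 1, 2 and 3 by genes of myeloid-derived suppressor cells. The study's discussion places genes of the monocytic kind in clusters 2 and 3. Every cell of cluster 2 carried the neutrophil label of the ImmGen reference, 92.6% the granulocyte and 7.32% the monocyte label of the MouseRNA reference, and 98.0% were placed in G1. All 12 mature neutrophil markers were detected, with S100a8 and S100a9, subunits of calprotectin, at 115189 and 139861 CPM, the UMIs of a gene in each 1000000 UMIs of the cluster. Both were higher in cluster 0 (147125 and 165479 CPM) and in cluster 4 (144077 and 155279 CPM), where the precursor markers were highest. The mature list summed to 267484 CPM in cluster 2, above cluster 1 (207754) but below clusters 0 (320053), 3 (316688) and 4 (301282). Its level therefore does not by itself show maturity. Neutrophil precursor markers summed to between 12.9 and 38.5 CPM, dendritic cell markers to at most 1.33 CPM and B cell markers to between 1.35 and 11.2 CPM. Of the T and NK cell markers, Cd3e, Trac and Klrb1c were at 0 in every library, and of the odontoblast markers Dspp was at 0.

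Marker lists of other cells also differed by skeletal site, and 5 of them did not overlap, some through single genes and the odontoblast list only at the floor of counting. The sum of the immature neutrophil markers (Ltf, Camp, Ngp, Lcn2, Chil3) ran from 6330 to 12432 CPM in the femur and from 14257 to 22166 CPM in the mandible, without overlap. The monocyte list ran from 537 to 676 CPM and from 759 to 861 CPM, but 642 of its mean of 710.1 CPM was Ly6c2. Csf1r, the M-CSF receptor of monocytes, had the opposite direction (58.6, 74.96 and 55.9 against 50.5, 38.3 and 52.1 CPM), and Ccr2, F13a1 and Cx3cr1 overlapped. The T and NK list ran from 10.4 to 13.4 CPM and from 15.8 to 17.1 CPM, of which nearly all was Cd3d (13.8 of a mean of 14.4 CPM), a gene at its highest in neutrophil cluster 3, and Nkg7 overlapped. The odontoblast list was at most 0.112 CPM in the femur and ran from 0.158 to 0.401 CPM in the mandible, mostly Phex. These levels rest on very few UMIs. The 0.158 CPM came from a mandibular library of 6322406 UMIs and the 0.112 CPM from a femoral library of 17879675, so this lack of overlap carries no weight. The ameloblast list was at most 0.148 CPM in the femur and ran from 15.8 to 71.4 CPM in the mandible. The bone and stromal list (11.8 to 36.3 against 30.1 to 49.4 CPM), the erythroid list (15.9 to 51.8 against 35.4 to 47.8) and the macrophage list (44.6 to 82.4 against 43.0 to 64.9) overlapped. The part these cells or their RNA have in the site differences was not tested.

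Cluster 2 took 11.3%, 18.2% and 13.03% of the femur-derived cells and 15.3%, 11.1% and 14.2% of the mandibular-derived cells, which overlapped (14.1% ± 3.59 against 13.6% ± 2.19, SD, n = 3 per site; 2-sided exact permutation test p = 0.90). Of the cells of clusters 1, 2 and 3 it took 28.2% ± 3.25 of those from the femur and 30.3% ± 1.98 of those from the mandible (exact p = 0.40). The median number of UMIs per cell was 6021 ± 1018 and 5675 ± 565 (exact p = 0.70). With 3 libraries per site the smallest p this test can give is 0.10, so it cannot pass 0.05.

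The stefins were the genes that defined the cluster. Cstdc4, a stefin A-like gene, averaged 2617 CPM over the 6 libraries, against 200.5 in cluster 1 and 28.8 in cluster 3, and Stfa2l1 averaged 2244 CPM, against 331 and 57.3. The lowest library of cluster 2 held 1954 CPM of Cstdc4 and 1819 CPM of Stfa2l1, so neither gene overlapped with the neighbouring clusters. Because the clusters were made from these values, the differences between clusters are a description and were not tested.

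The other stefin A genes followed the same order against cluster 1 at lower levels. Stfa1 measured 341 CPM in cluster 2 and 113 CPM in cluster 1, Cstdc5 170.2 and 44.4 CPM, Stfa3 84.7 and 18.0 CPM, and Stfa2 79.8 and 21.9 CPM. Cluster 3 lay between the 2 for these 4 genes, at 149 CPM of Stfa1, 81.8 of Cstdc5, 61.1 of Stfa3 and 39.3 of Stfa2. Of the remaining members Csta3 measured 20.6 CPM, Csta2 8.04 CPM and Cstdc6 2.93 CPM, and Csta1 and Cst7 stayed below 0.4 CPM in every library. Cystatin B (Cstb, 65.1 CPM in cluster 2 and 81.7 CPM in cluster 1) and cystatin C (Cst3, 366 and 521 CPM), which lie on other chromosomes, were higher in cluster 1. Retnlg, a secreted resistin-like protein of neutrophils that marks the cluster, was higher in cluster 3 (27124 CPM) than in cluster 2 (23043 CPM) and lowest in cluster 1 (16355 CPM).

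Cluster 2 was itself made of 2 parts. At a resolution of 0.3 the authors' clustering placed 6586 of its cells (68.4%, 65.6% to 71.1% per library) in a larger finer cluster and 2888 (29.99%, 27.8% to 33.2% per library) in a smaller one. The smaller part carried more stefin: Cstdc4 averaged 4418 CPM there and 1879 CPM in the larger part, and Stfa2l1 3589 and 1686 CPM. Cstdc5 (270.1 and 130.1 CPM) and Stfa2 (116 and 65.1 CPM) had the same order, and the 13 genes of the stefin and cystatin list that have counts together summed to 9433 CPM in the smaller and 4587 CPM in the larger part, with 746 CPM in cluster 3 and 1344 CPM in cluster 1.

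**Figure D1:**
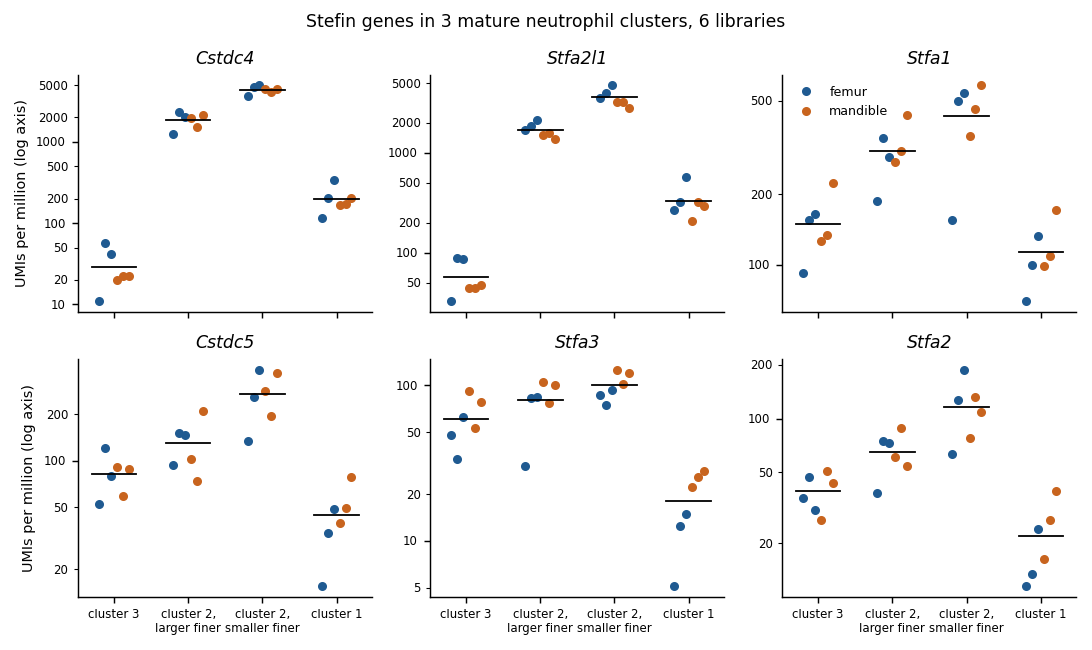
Level of 6 stefin genes, in CPM on a log axis, in cluster 3, the larger and the smaller part of cluster 2, and cluster 1; each point is a library (blue femur, orange mandible) and each bar the mean of 6. Cstdc4 and Stfa2l1 peak in the smaller part of cluster 2, at 4418 and 3589 CPM on average.

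The 2 parts also differed in genes that order neutrophils by age. Secondary granule transcripts were lower in the smaller part, with Ngp, neutrophilic granule protein, at 3269 CPM against 5153 CPM and Ltf, lactoferrin, at 1030 against 1705 CPM. Both genes were lower there in 5 of 6 libraries, with log2 ratios from -1.37 to 0.14 for Ngp and from -1.90 to 0.29 for Ltf. Olfm4, olfactomedin 4, another secondary granule protein, measured 48.8 and 105 CPM, lower in 6 of 6. Il1b, interleukin 1 beta, was higher in the smaller part (959 against 636 CPM), as were Ptgs2, the inducible prostaglandin synthase (382 against 261 CPM), Ifitm1 (681 against 445 CPM) and Prr5l (96.0 against 61.6 CPM). The largest of these ratios, over the genes compared, stayed that of Cstdc4, at a mean log2 ratio of 1.26 (1.02 to 1.57 over the 6 libraries).

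Whole gene lists ran in order from cluster 3 through the larger and the smaller part of cluster 2 to cluster 1. The secondary granule list summed to 35836, 24592, 19120 and 14768 CPM in that order, and the tertiary granule list to 40834, 34992, 31175 and 24730 CPM. The immediate early genes ran the other way, at 6926, 11694, 14047 and 17653 CPM, as did the IL-1 and inflammasome list at 1436, 2885, 3693 and 5484 CPM. Cytokine receptors (2230, 3461, 4055 and 5025 CPM) and chemokines and cytokines (1261, 2621, 3281 and 3594 CPM) were likewise higher at each step. The stefin list alone of those plotted reached its highest level in the middle of this order. It holds Cstdc4 and Stfa2l1, which mark the cluster, at 4418 and 3589 CPM in the smaller part. Its peak therefore reflects how the cluster was made and is no separate observation.

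**Figure D2:**
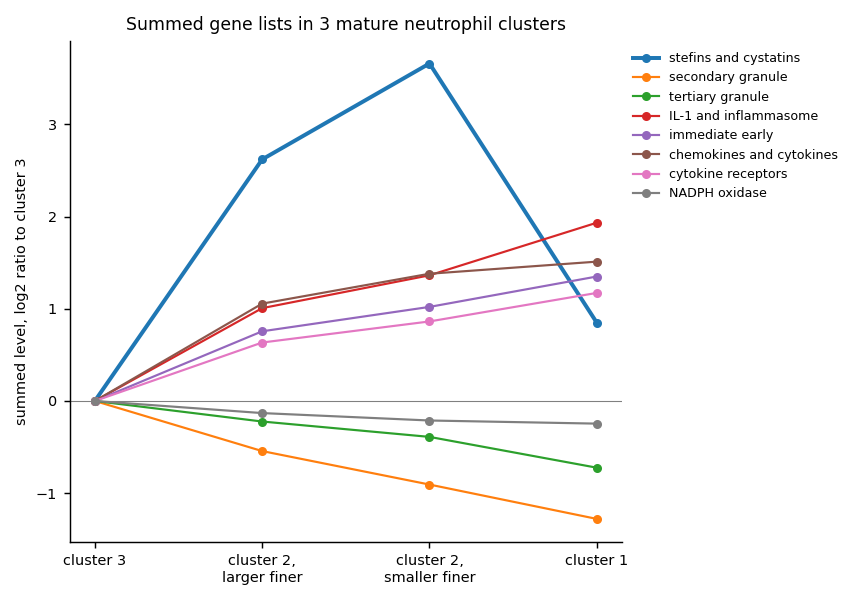
Log2 ratio of the summed level of 8 gene lists to cluster 3, for cluster 3, the larger and the smaller part of cluster 2 and cluster 1. Each point is taken from means over the 6 libraries, and single libraries are not drawn. From left to right the granule lists are lower and the IL-1, cytokine receptor and immediate early lists higher at each step, while the stefin list, which holds markers of the cluster, is highest in the smaller part of cluster 2.

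Single genes placed cluster 2 in the same way between its neighbours. Against cluster 3 it held more Il1b (739 against 63.5 CPM), Wfdc17 (357 against 35.5 CPM), Ifitm1 (522 against 95.9 CPM), Ptgs2 (297 against 63.2 CPM) and Prr5l (73.0 against 3.73 CPM), and less Ngp (4710 against 9118 CPM) and Serpinb1a, an inhibitor of neutrophil serine proteases (104 against 212 CPM). Against cluster 1 it held less Csf1, the macrophage growth factor M-CSF (11.4 against 74.4 CPM), less Pmaip1, the pro-apoptotic protein NOXA (12.3 against 71.9 CPM), less of the stress-response factor Atf3 (27.2 against 100.3 CPM) and less of the integrin Itga4 (57.6 against 200.1 CPM). Beside the stefins, Olfm4 (92.6 against 36.4 CPM) and Itgb2l (149 against 68.4 CPM) were higher in cluster 2 than in cluster 1.

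The comparison of the 2 skeletal sites within cluster 2 asked which genes of these neutrophils differ between mandibular- and femur-derived marrow. Counts were summed per library and tested with edgeR's quasi-likelihood test, with trimmed-mean (TMM) scaling and Benjamini-Hochberg adjusted p-values over 9618 genes, and log2 fold changes are mandible over femur, ± SE. At an adjusted p under 0.05, 4 genes (0.0416% of those tested) differed, 3 higher (0.0312%) and 1 lower (0.0104%) in the mandible. At an unadjusted p under 0.05 there were 1176 genes (12.2%), of which 560 were higher (5.82% of those tested) and 616 lower (6.40%). The libraries of the 2 sites did not overlap for 1432 genes (14.9%), 623 higher (6.48%) and 809 lower (8.41%). The call rested on single libraries: without femur library 1, or without femur library 2, edgeR called 0 genes (1113 and 968 at an unadjusted p under 0.05), while DESeq2 on all 6 called 178 (1.85%). The split by direction also turned: DESeq2 called 78 higher (0.811%) and 100 lower (1.04%), library sizes in place of TMM gave 8 higher and 12 lower, and counts thinned to the smallest library 5 higher and 7 lower. In the 4 male libraries whose names carry the numbers 6 and 7 at both sites, edgeR with that number as a block called 1268 of 10191 genes (12.4%), 733 higher (7.19%) and 535 lower (5.25%). With only 1 library per site and number, that fit has almost no replication. Its calls, also those of single genes given below, lean on variance shared across genes.

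Amelx (chrX:169176114-169187200 in mm10), amelogenin, the main protein of forming enamel, was found in the mandible. Its level was 0, 0.0739 and 0 CPM in the femur and 58.4, 13.8 and 28.3 CPM in the mandible, from 0, 1 and 0 UMIs against 567, 87 and 212. Every mandibular library lay above every femoral one, and the summed levels stood in a ratio of 1484 (exact 95% interval 266 to 58691 for counting error alone; edgeR adjusted p = 0.00598, 0.0987 without femur library 1 and 0.0674 without femur library 2). It could pass the filter on low counts through the mandibular libraries alone, so the p adds no support to the counts themselves. Amelx was present in the mandible in other cells too, at 33.2, 1.98 and 55.6 CPM in the B cells of cluster 6, where all 6 B cell markers were highest, and 21.96, 9.92 and 15.7 CPM in cluster 0. In the femur it was at 0 in the B cells and at most 0.0351 CPM in cluster 0. Its level was far higher in other clusters, with means over the 6 libraries of 198.6 CPM in cluster 5, 128.8 in cluster 7 and 86.8 in cluster 8, against 16.8 in cluster 2. Of the mandibular cells of cluster 2, 6.65% ± 1.87 held a UMI of Amelx, and of the B cells 3.09% ± 1.80, at median depths per library of 5301 to 6325 and 3104 to 4629 UMIs (5087 to 7106.5 and 5042 to 5541 UMIs in the femur, for the shares given next). After thinning to 1500 UMIs, which left out 1 to 4 shallower cells of cluster 2 and 1 to 14 B cells per mandibular library, the shares were 2.57% and 1.08%, and the part of free RNA in this value was not tested.

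Col1a1 (chr11:94936224-94953042), a chain of type I collagen made by bone-forming cells, measured 2.59, 2.44 and 1.57 CPM in the femur and 9.38, 6.33 and 9.76 CPM in the mandible. The sites did not overlap (log2 fold change 2.02 ± 0.25, edgeR adjusted p = 0.0388), but the call was lost without any 1 of the 6 libraries. Its mean over the 6 libraries was 5.34 CPM in cluster 2, near the 4.36, 4.25 and 4.46 CPM of clusters 0, 1 and 3. It was far higher in clusters 7 (103 CPM) and 5 (64.0 CPM), and the part of free RNA in cluster 2 was not tested.

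mt-Cytb (chrM:14145-15288), the cytochrome b subunit of complex III encoded in the mitochondrial genome, measured 228.8, 250.4 and 200.4 CPM in the femur and 492.2, 438.7 and 549.1 CPM in the mandible. All 3 mandibular libraries lay above the femoral ones (1.17 ± 0.12 on the log2 scale, edgeR adjusted p = 0.0127). Among the 4 male libraries numbered 6 and 7, the log2 ratio was 0.97 within number 6 and 1.13 within number 7. The call held in 2 of the 6 fits that leave out a library, those without femur library 3 and without mandible library 1.

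Sirpb1c (chr3:15795145-15848528), a member of the signal-regulatory protein beta family of activating myeloid receptors, was the gene that fell. It measured 82.3, 96.4 and 73.2 CPM in the femur and 37.4, 27.2 and 31.1 CPM in the mandible, so the sites did not overlap (-1.35 ± 0.14 on the log2 scale, edgeR adjusted p = 0.0127). Within library numbers 6 and 7 the log2 ratios were -1.37 and -1.43, and the call held in 2 of the 6 fits that leave out a library. A UMI was held by 34.0% ± 4.61 of femoral and 16.7% ± 3.45 of mandibular cells, and in B cells, which should lack the gene, 5.95% and 2.18%. Thinned to 1500 UMIs the cells of cluster 2 gave 12.6% and 5.21%. The neighbouring clusters had the same direction after thinning, with 19.9% and 10.8% in cluster 1 and 2.29% and 1.00% in cluster 3. The thinned B cells gave 2.40% and 0.0877%.

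Its paralogs had the same direction without passing the adjusted test. Sirpb1a measured 16.3, 21.3 and 18.0 CPM against 8.86, 7.59 and 8.95 CPM (log2 fold change -1.09 ± 0.16, edgeR adjusted p = 0.0606) and Sirpb1b 416, 476 and 374 CPM against 282, 238 and 255 CPM (-0.66 ± 0.12, adjusted p = 0.0967). Neither overlapped between sites. Of the 7 tested members of the SIRP list, 3 were lower at an unadjusted p under 0.05 (6.40% of all genes) and none higher (5.82%). These were the Sirpb1 genes, and DESeq2 called 3 lower (1.04% of all genes). Over the list 4 members had a negative and 3 a positive log2 fold change, and 1 was higher and 3 lower without overlap (6.48% and 8.41% of all genes). The median was -0.045 (0.013 without femur library 2 and 0.010 without mandible library 2). Because the 3 Sirpb1 genes are paralogs of a multigene family on chromosome 3, how reads were split among them is uncertain.

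**Figure D3:**
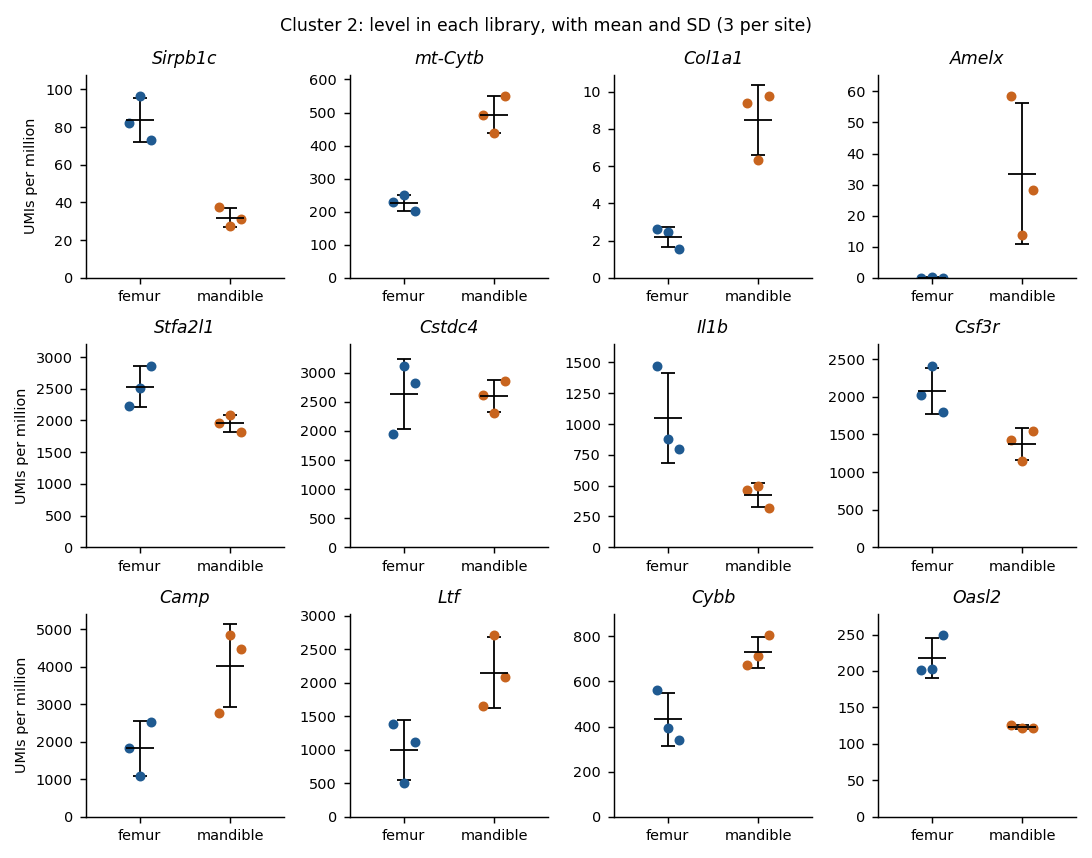
Level of 12 genes in cluster 2, in CPM on axes from 0, for the 3 femur (blue) and 3 mandible (orange) libraries, with mean ± SD. Sirpb1c, Il1b, Csf3r, Oasl2 and Stfa2l1 lie lower and mt-Cytb, Camp, Ltf, Cybb, Col1a1 and Amelx higher in the mandible without overlap, whereas Cstdc4 overlaps.

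None of the stefins that define the cluster passed the test between the 2 sites over all 6 libraries, but cells were placed in the cluster partly by their stefin level, so levels within it are limited by that choice and the test does not show that the sites are alike. In the 4 libraries numbered 6 and 7, blocked by that number, edgeR called 2 members of the list lower in the mandible, Cstdc5 (-0.53 ± 0.13, adjusted p = 0.00545) and Cst3 (-0.39 ± 0.12, adjusted p = 0.0302), where 5.25% of all genes were called lower. Cstdc4 measured 1954, 3119 and 2827 CPM in the femur and 2626, 2317 and 2858 CPM in the mandible, which overlapped (log2 fold change 0.02 ± 0.20, edgeR adjusted p = 0.989). Stfa2l1 measured 2224, 2519 and 2862 CPM against 1954, 2087 and 1819 CPM, lower in each mandibular library, but did not pass the test (-0.34 ± 0.19, adjusted p = 0.538). Stfa3 measured 46.4, 79.2 and 84.6 CPM against 109, 83.2 and 106 CPM, with overlap (0.52 ± 0.23, unadjusted p = 0.0458, adjusted p = 0.391). Of the 11 members tested, 1 was higher and none lower at an unadjusted p under 0.05, against 5.82% and 6.40% of all genes. Without overlap between the sites 0 were higher and 2 lower, against 6.48% and 8.41% of all genes. Log2 fold changes were positive for 8 and negative for 3. Their median was 0.03 (-0.17 without femur library 1 and 0.26 without femur library 3), against 0.00 over all genes tested. A share of 81.0% ± 1.38 of femoral and 76.4% ± 1.96 of mandibular cells held a UMI of Stfa2l1, against 13.3% and 4.28% of B cells, and for Cstdc4 the shares were 71.8% ± 7.31 and 69.1% ± 3.07, against 7.50% and 4.56%.

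Transcripts of the mitochondrial genome stood higher in the mandible as a list. Of its 13 protein-coding genes, all of them tested, all 13 had a positive log2 fold change, with a list median of 0.62. At an unadjusted p under 0.05, 11 were higher, against 5.82% of all genes. For 10 the sites did not overlap, all higher, against 6.48% of all genes, and 1, mt-Cytb, passed the adjusted test. mt-Nd1, a complex I subunit, measured 114, 129.98 and 80.9 CPM in the femur and 224, 177 and 273 CPM in the mandible (log2 fold change 1.10 ± 0.16, edgeR adjusted p = 0.0606). mt-Co3, a complex IV subunit, measured 674, 720.3 and 494 CPM against 1127, 929 and 1055 CPM (0.77 ± 0.14, adjusted p = 0.0953). Both genes were higher in every mandibular library than in any femoral one. Mitochondrial genes took 0.334% ± 0.0412 of the UMIs of the femoral and 0.531% ± 0.0437 of those of the mandibular libraries, without overlap (exact permutation p = 0.10, adjusted p = 0.60 over 12 cell measures). As a median over cells the share was 0.2199% and 0.3202%, a difference of 0.1003 percentage points in place of 0.197. Of the 56 tested nuclear genes of oxidative phosphorylation, 52 had a positive log2 fold change and the median was 0.18, which ran from 0.064 without femur library 2 and 0.074 without femur library 1 to 0.45 without femur library 3 and was 0.30 and 0.096 without mandible libraries 1 and 2. Of the 56, 1, Atp5g3, had an unadjusted p under 0.05 and was higher, against 5.82% of all genes. The study regressed mitochondrial content out of its normalized values before clustering, and the counts used here were not so adjusted.

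Some secondary granule genes were also higher in the mandible at an unadjusted p, and none passed the adjusted test. Of the 13 tested, 5 had an unadjusted p under 0.05, all higher, against 5.82% of all genes. A positive log2 fold change was found for 10 and a negative one for 3, and the median was 0.38. Without femur library 2 or mandible library 2 this median was 0.21 and 0.22, and without femur library 3 it was 0.62. Camp, the cathelicidin antimicrobial peptide, measured 1846, 1084 and 2540 CPM in the femur and 2780, 4841 and 4488 CPM in the mandible (log2 fold change 1.16 ± 0.36, edgeR adjusted p = 0.239). Ltf measured 1378, 506 and 1112 CPM against 1649, 2708 and 2093 CPM (1.14 ± 0.37, adjusted p = 0.251), and Ngp 3961, 1737 and 3656 CPM against 4872, 7695 and 6339 CPM (1.04 ± 0.35, adjusted p = 0.259). For these 3 genes the lowest mandibular library lay above the highest femoral one, and DESeq2 called all 3 higher. Within library numbers 6 and 7 the log2 ratios were 1.36 and 0.93 for Camp and 1.71 and 1.28 for Ltf. In the B cells of cluster 6, Camp measured 724, 3240 and 11720 CPM in the femur and 4094, 2307 and 2081 CPM in the mandible, and Ltf 653, 1360 and 2498 against 1182, 1075 and 1006 CPM, so these genes overlapped between the sites there. In cluster 0, where Ltf was most abundant, Camp ran from 27980 to 33596 CPM in the femur and from 27514 to 31983 CPM in the mandible.

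The other granule and granulopoiesis lists had members in both directions. Of the 17 granulopoiesis factors 7 had a positive and 10 a negative log2 fold change. Cebpe, the transcription factor that drives secondary granule genes, measured 42.8, 50.8 and 47.2 CPM in the femur and 78.2, 75.0 and 84.5 CPM in the mandible, with no overlap (log2 fold change 0.79 ± 0.13, edgeR adjusted p = 0.0701). Cybb, the catalytic subunit of the phagocyte NADPH oxidase, measured 561, 395 and 338 CPM against 672, 711 and 804 CPM (0.80 ± 0.19, adjusted p = 0.142). Of the 10 tested NADPH oxidase genes, 2 were higher and none lower at an unadjusted p under 0.05, where 5.82% of all genes were higher and 6.40% lower. On the tertiary granule list, at the same unadjusted threshold and beside the same shares of all genes, 2 of 11 were higher, Mmp8 and Mmp25, and 1 lower, Arg2. By sign, 7 of its log2 fold changes were positive and 4 negative. On the primary granule list 2 of 9 were higher by the same measure, Cd63 and Serpinb1a, and 1 was lower, with 6 positive and 3 negative log2 fold changes. Being on these lists does not show that a protein is stored in the granule.

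Il1b stood lower in the mandible. It measured 1473, 880.2 and 802 CPM in the femur and 467, 494 and 316 CPM in the mandible, so the lowest femoral library lay above the highest mandibular one (log2 fold change -1.25 ± 0.27, edgeR adjusted p = 0.136, DESeq2 adjusted p = 0.00034). Within library numbers 6 and 7 the log2 ratios were -0.91 and -0.70, with the female femur library at the highest level. The share of cells with a UMI was 72.2% ± 2.58 and 49.0% ± 3.23, and 53.7% and 31.6% after thinning to 1500 UMIs. In the B cells the share was 19.1% and 6.45% before thinning. After thinning it was 7.65% (2.56% to 10.4% over libraries) in the femur and 3.46% (1.17% to 6.06%) in the mandible, which overlapped. The femoral libraries held only 39, 158 and 60 B cells, and the part of free RNA was not tested. Il1r2, the decoy receptor for interleukin 1, overlapped between the sites, at 2299, 1137 and 735 CPM against 1494, 1167 and 749 CPM. In the 4 libraries blocked by number it was higher in the mandible (0.60 ± 0.13, edgeR adjusted p = 0.00189). Of the 13 tested IL-1 and inflammasome genes, 3 were lower and none higher at an unadjusted p under 0.05, against 6.40% and 5.82% of all genes. The list median was -0.22, with -0.10 without femur library 3 or mandible library 3 and -0.39 without femur library 2. Over all alternatives outside the finer clusters this median ran from -0.39 to -0.024.

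Most tested cytokine receptors and interferon-induced genes also had a negative log2 fold change, and none passed the adjusted edgeR test. Csf3r, the receptor for the neutrophil growth factor G-CSF, measured 2021, 2411 and 1797 CPM in the femur and 1429, 1141 and 1546 CPM in the mandible without overlap (log2 fold change -0.56 ± 0.15, edgeR adjusted p = 0.172, DESeq2 adjusted p = 0.014). Of the 17 tested cytokine receptors, 8 were lower and none higher at an unadjusted p under 0.05, against 6.40% and 5.82% of all genes. DESeq2 called 1 of them lower, against 1.04% of all genes. Of the 17, 16 had a negative log2 fold change, and the median was -0.34. The 8 lower at an unadjusted p included Tnfrsf1b, a TNF receptor (-0.71 ± 0.20), and Tgfbr2, a TGF-beta receptor (-0.44 ± 0.15).

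Of 37 tested interferon-induced genes, 14 were lower and none higher at an unadjusted p under 0.05, against 6.40% and 5.82% of all genes. Without overlap between the sites 17 were lower, against 8.41% of all genes. Of the 37, 34 had a negative log2 fold change, and the median was -0.35, with -0.18 without femur library 3 and -0.52 without femur library 2. None passed the adjusted edgeR test and DESeq2 called 5 lower, against 1.04% of all genes. Oasl2, a member of the oligoadenylate synthetase family, measured 201.5, 202.4 and 249 CPM in the femur and 126, 122 and 122 CPM in the mandible (log2 fold change -0.79 ± 0.17, edgeR adjusted p = 0.136). Ifitm1, an interferon-induced membrane protein, measured 601, 506 and 1038 CPM against 276, 398 and 309 CPM (-1.11 ± 0.32, adjusted p = 0.208). Neither gene overlapped between the sites.

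Just above the threshold stood further genes in which the sites did not overlap. Itga4, the alpha 4 integrin, measured 74.9, 82.0 and 84.7 CPM in the femur and 39.9, 34.2 and 30.2 CPM in the mandible (log2 fold change -1.18 ± 0.16, edgeR adjusted p = 0.0606). Prr5l, which binds the mTORC2 kinase complex, measured 106, 102 and 111 CPM against 37.0, 49.2 and 32.5 CPM (-1.38 ± 0.20, adjusted p = 0.0606). Csf1 measured 14.5, 18.1 and 15.8 CPM against 7.63, 6.80 and 5.61 CPM (-1.23 ± 0.19, adjusted p = 0.0606) and Pmaip1 15.0, 22.4 and 17.3 CPM against 8.96, 4.90 and 5.08 CPM (-1.47 ± 0.25, adjusted p = 0.0804). In each of these 4 genes every mandibular library was lower, and all 4 passed in DESeq2. Higher in the mandible were Fmnl2, a formin of the actin cytoskeleton (35.6, 25.1 and 24.1 against 49.6, 66.6 and 78.8 CPM, adjusted p = 0.0804), and Fosl1, an AP-1 transcription factor (22.8, 15.8 and 14.3 against 51.0, 56.8 and 33.4 CPM, adjusted p = 0.0804).

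The remaining lists had members in both directions or few below an unadjusted p of 0.05, where 6.40% of all genes were lower and 5.82% higher. Lower members outnumbered higher ones in innate receptors (5 lower, none higher of 25, median -0.15, among them Tlr4 at -0.58 ± 0.15), survival genes (3 and none of 18, median -0.04), class I antigen presentation (3 and none of 16, median -0.21), chemokines and cytokines (3 and 1 of 12, median -0.16), and autophagy and lysosome genes (4 and none of 25, median -0.03). Of the 21 glycolysis genes 2 were lower and 1 higher, near the shares over all genes, with 14 positive and 7 negative log2 fold changes and a median of 0.12. Higher members outnumbered lower ones in the NF-kappa-B feedback genes (4 and 1 of 16, median 0.08, with Nfkbia at 0.46 ± 0.13), immediate early genes (4 and 2 of 24, median 0.18), granulopoiesis factors (3 and 1 of 17, median -0.09) and eicosanoid genes (2 and 1 of 12, median 0.02). A single gene was higher and none lower among 7 S100 genes (median 0.15) and among 24 actin and motility genes (median 0.11), against 5.82% of all genes. Adhesion and egress genes were even, with 2 of 16 each way and a median of -0.21. In the 4 libraries blocked by number, where 7.19% of all genes were called higher and 5.25% lower, the split was 4 higher and 2 lower in chemokines and cytokines, 3 each way in innate receptors and 5 higher and 1 lower in glycolysis. The medians depended on single libraries. That of the immediate early genes was -0.064 without mandible library 1 and 0.025 without femur library 3, and signs also turned without femur library 3 for the NF-kappa-B feedback (-0.0049), granulopoiesis (0.013) and eicosanoid lists (-0.086), without mandible library 2 for the eicosanoid list (-0.014), and without femur library 1 or mandible library 3 for the autophagy list (0.024 and 0.021). Over the fits that leave out 1 library the others kept their sign, from -0.51 to -0.047 for chemokines and cytokines, -0.22 to -0.035 for innate receptors, -0.12 to -0.0027 for survival, -0.27 to -0.15 for class I presentation, -0.35 to -0.17 for adhesion and egress, 0.045 to 0.17 for glycolysis, 0.035 to 0.37 for S100 genes and 0.069 to 0.15 for actin and motility. Under other alternatives the medians of innate receptors and survival genes also turned, reaching 0.0087 and 0.0024.

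**Figure D4:**
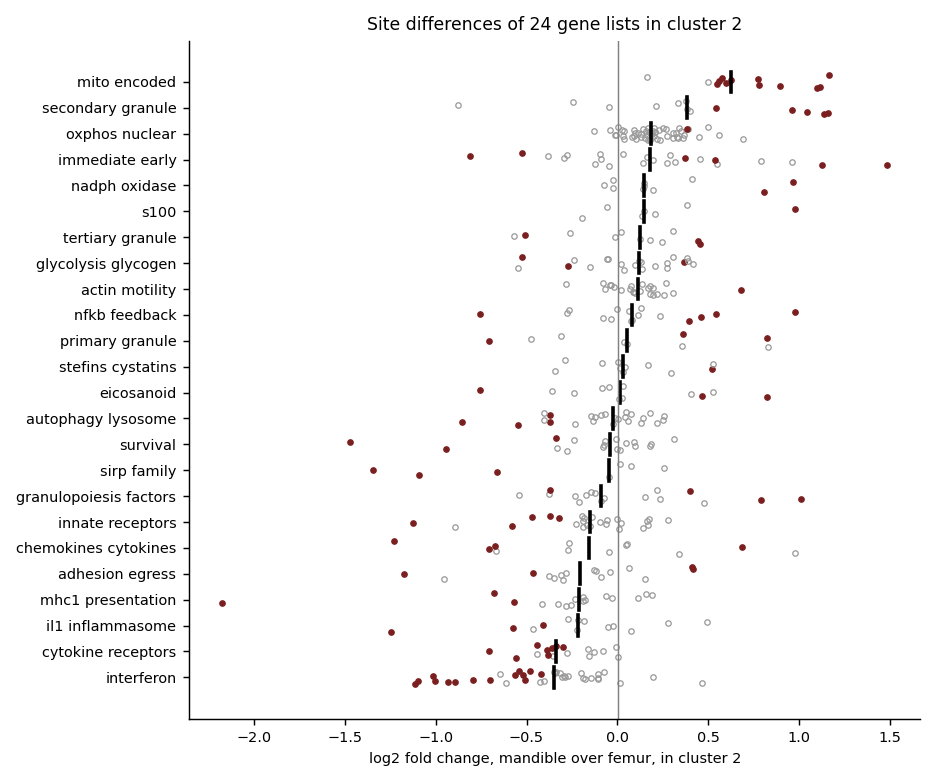
Log2 fold change, mandible over femur, of the tested members of 24 gene lists in cluster 2; filled points have an unadjusted p under 0.05, black bars are list medians and the grey line is the median of all genes (0.00). The mitochondrial list lies furthest to the right (median 0.62) and the interferon and cytokine receptor lists furthest to the left (-0.35 and -0.34).

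Whether the effect of skeletal site in cluster 2 differed from that in its neighbours was tested directly, with limma on the per-library difference in log2 CPM between the clusters. Against cluster 3 the site effect differed at an adjusted p under 0.05 for 117 of 9084 genes (1.29%), with 106 (1.17%) higher in the mandible relative to cluster 3 and 11 (0.121%) lower. Against cluster 1 it differed for 161 of 9580 genes (1.68%), with 10 (0.104%) higher and 151 (1.58%) lower. An edgeR interaction model gave 118 and 215 genes. The variance trend was fitted over mean level, a choice made after the data were seen, and with limma's default trend over the mean difference between clusters, 0 genes passed in either comparison (905 and 1006 at an unadjusted p under 0.05). Against cluster 3, 267 genes passed without femur library 2 and 41, 50, 33 and 50 without femur library 3 and mandible libraries 1, 2 and 3. Against cluster 1, 35 and 25 passed without femur libraries 2 and 3, and 76 and 31 without mandible libraries 1 and 3.

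Secondary granule genes separated cluster 2 from cluster 3. Of 13 tested, 8 passed the adjusted limma test with a higher mandible over femur ratio in cluster 2 than in cluster 3, against 1.17% of all genes. They were Lcn2, Chil3, Cd177, Camp, Ngp, Ltf, Lyz2 and Anxa1. None passed with a lower ratio, against 0.121% of all genes. Ngp had a site log2 fold change of 0.29 in cluster 3, 1.04 in cluster 2 and 1.52 in cluster 1, and the difference of cluster 2 from cluster 3 was 0.71 ± 0.06 (limma adjusted p = 8.4e-06). Camp followed with 0.40, 1.16 and 1.35 (difference from cluster 3 0.69 ± 0.06), Ltf with 0.26, 1.14 and 1.54 (0.79 ± 0.09) and Cybb with 0.19, 0.80 and 1.24 (0.60 ± 0.06). For these 4 genes the difference from cluster 3 passed in all 6 fits that leave out a library, and in each the site effect of cluster 2 lay between those of its neighbours. In cluster 3 itself Camp overlapped between the sites, at 4725, 2365 and 6259 CPM against 4549, 6811 and 6731 CPM. In cluster 1 mandible library 2 stood apart, with 3618 CPM of Camp against 1185 and 1677 CPM in the other mandibular libraries.

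The mitochondrial genes set cluster 2 apart from cluster 3 as well. Of 13, 7 passed the adjusted limma test with a higher site ratio in cluster 2, against 1.17% of all genes. None passed with a lower one, against 0.121% of all genes. The site effect on mt-Cytb was 0.66 in cluster 3, 1.17 in cluster 2 and 0.89 in cluster 1 (difference from cluster 3 0.50 ± 0.09, limma adjusted p = 0.0063, lost without femur library 3). Against cluster 1 none of the 13 passed, where 1.68% of all genes did. Itga4 differed in the other direction, at -0.31, -1.18 and -1.28 in clusters 3, 2 and 1 (difference from cluster 3 -0.87 ± 0.13, adjusted p = 0.0033, held in 6 of 6 fits that leave out a library).

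Against cluster 1 the genes that differed came from many lists, nearly all with a lower site ratio in cluster 2. The list counts that follow are of genes that passed the adjusted limma test. Of all genes tested, 1.58% passed lower and 0.104% higher. Among the 13 secondary granule genes 4 were lower and none higher (Lcn2, Cd177, Lyz2 and Anxa1), among 7 S100 genes 2 were lower (S100a6 and S100a11), and among 25 innate receptors 3 (Tlr2, Fpr1 and Fpr2). Of 37 interferon-induced genes 3 were lower (Oasl2, Ifitm1 and Ifitm6), and of 12 chemokines and cytokines 3 were lower and 1 higher. Of 24 immediate early genes 2, Nr4a1 among them, were higher and none lower. Cstdc5 had a site log2 fold change of 0.04 in cluster 2 and 0.88 in cluster 1 (difference of cluster 2 from cluster 1 -0.92 ± 0.15, limma adjusted p = 0.0066, held in 6 of 6 fits that leave out a library), and Stfa3 0.52 and 1.34 (-0.88 ± 0.14, adjusted p = 0.0076, lost without mandible library 3). In cluster 1 Cstdc5 measured 15.6, 34.1 and 49.0 CPM in the femur and 39.6, 49.7 and 78.5 CPM in the mandible, and Stfa3 5.15, 12.5 and 14.8 against 22.3, 25.5 and 27.9 CPM. These were 2 of the 10 stefins and cystatins tested, and the other 8, Cstdc4 and Stfa2l1 among them, did not pass. Of 11 tertiary granule genes 4 passed with a lower site ratio in cluster 2 than in cluster 1, Pglyrp1, Mmp8, Retnlg and Mmp25. Retnlg had 0.18 in cluster 2 and 0.65 in cluster 1 (difference -0.45 ± 0.08, adjusted p = 0.0128, held in 4 of 6 fits) and Mmp8, the neutrophil collagenase, 0.46 and 0.90 (-0.46 ± 0.07, adjusted p = 0.0059, 6 of 6 fits). Il1b had -1.25 in cluster 2 and -0.81 in cluster 1 (-0.45 ± 0.07, adjusted p = 0.0060, 6 of 6 fits), and -1.28 in cluster 3, from which it did not differ at the threshold.

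**Figure D5:**
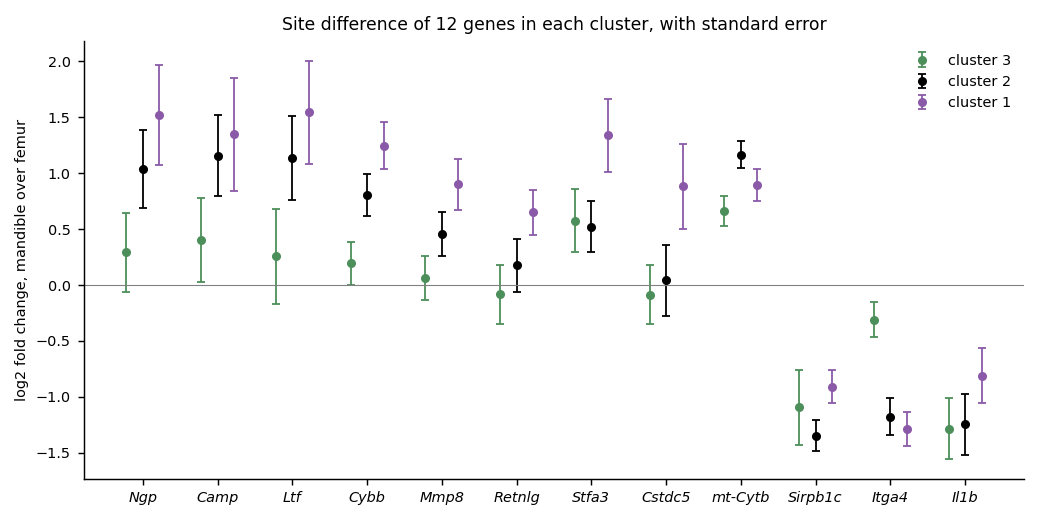
Log2 fold change, mandible over femur, ± SE from edgeR, of 12 genes in clusters 3, 2 and 1, with 3 libraries per site. For Ngp, Camp, Ltf and Cybb the value climbs from cluster 3 (0.29, 0.40, 0.26 and 0.19) through cluster 2 to cluster 1 (1.52, 1.35, 1.54 and 1.24), whereas mt-Cytb and Sirpb1c are furthest from 0 in cluster 2. For mt-Cytb the difference from cluster 1 did not pass the adjusted limma test, and for Sirpb1c that from cluster 3 did not.

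The site calls were also repeated in each part of cluster 2. In the larger finer cluster 4 genes passed (0.0449% of those tested), Sirpb1c and Prr5l lower (0.0224%) and mt-Cytb and Amelx higher (0.0224%) in the mandible. In the smaller, more stefin-rich one 18 passed (0.247%), 14 higher (0.192%) and 4 lower (0.055%). The 14 included 5 mitochondrial genes beside mt-Cytb, namely mt-Nd1, mt-Nd2, mt-Nd3, mt-Nd4 and mt-Co3, and also Ltf, Cybb, Fmnl2 and Col1a1. The 4 lower were Sirpb1c, Itga4, Csf1 and Il1bos, an antisense RNA at the Il1b locus whose reads may not be separable from those of Il1b where strand is not known. Whether the site effect differed between the 2 parts was not tested.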

How the data were processed

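Bone marrow CD11b+ cells from 3 femur and 3 mandible samples were captured with 10x Genomics 3′ chemistry. Per the labels, Cell Ranger 7.0.1 (7.1.0 in the file headers) aligned reads to mm10, and the deposited matrices hold raw UMI counts per gene and cell. The authors filtered cells (600 to 6000 genes, at most 20% mitochondrial content), normalized with SCTransform, integrated and clustered in Seurat under R 4.1.0, and deposited cluster numbers, cell labels, UMI counts and the mitochondrial percent of each cell, which were used as given. Doublets were not removed here, and leaving out the 5% of cells with most UMIs was an alternative. Counts of cluster 2 were summed per library, and the library was the replicate. Sites were compared with edgeR 4.0.16 (glmQLFit, TMM, filterByExpr, adjusted p under 0.05) in R 4.3.3, and differences in site effect between clusters with limma 3.58.1 on log2 CPM (prior count 2), the variance trend fitted over mean level, a choice made after the data were seen in place of limma's default. DESeq2 1.42.0 was an alternative. Exact permutation tests were 2-sided over 20 assignments. CPM are UMIs in each 1000000 of the cluster's total, and log2 ratios between clusters used an offset of 0.5 CPM. The scripts were tested on simulated data. Members and lists were chosen with earlier results of these data known. Of 459 list entries, 9 genes were not analysed here. Genes were named by rule: all that passed, the stefin and mitochondrial lists, fixed neutrophil markers, up to 4 genes per other list by lowest unadjusted p at 10 CPM or more, the 10 most abundant, the 10 most raised over clusters 1 and 3, the 5 largest rises and falls, and up to 3 per direction in each difference of site effect. Other genes named from finer clusters and cluster contrasts were chosen after their values were seen. Strand of counting was not given in the sources used here. Intervals cover counting error only, and ± on a share of cells is the SD over libraries.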

Additional observations from a re-analysis of the deposited data

Results flagged for a closer look

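The effect of skeletal site in cluster 2 differed from that in a neighbouring cluster, by the test of the difference itself, in the results given here as the log2 fold change (mandible over femur) in cluster 2 minus that in the other cluster (limma adjusted p under 0.05, with 0 genes passing under limma's default variance trend, over the mean difference).

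Against cluster 1, 161 genes differed. Of the genes named here, 3 had a higher site ratio in cluster 2, Plac8 (0.73), Nr4a1 (0.75) and Mbnl1 (0.46). The others had a lower one: the stefins Cstdc5 (-0.92) and Stfa3 (-0.88), the granule and matrix genes Retnlg (-0.45), Mmp8 (-0.46), Mmp25 (-0.39), Lyz2 (-0.34), Cd177 (-0.47) and Cybb (-0.42), and the cytokines Il1b (-0.45), Csf1 (-0.51) and Ccl6 (-0.39). Lower too were Sirpb1c (-0.43), Prr5l (-0.39), Fas (-0.34), S100a6 (-0.31), S100a11 (-0.22), the interferon-induced Ifitm1 (-0.35) and Oasl2 (-0.24), Lrrk2 (-0.37), Wfdc21 (-0.37), Steap4 (-0.66), 1700047M11Rik (-0.58) and B430010I23Rik (-0.37).

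Against cluster 3, 117 genes differed. Higher in cluster 2 were, from the granule lists, Ltf (0.79), Ngp (0.71), Camp (0.69), Chil3 (0.64), Cd177 (0.46), Mmp8 (0.39), Lyz2 (0.29) and Serpinb1a (0.65), with Cybb (0.60), the transcription factors Cebpe (0.40), Fosl1 (0.48) and Lmo4 (0.33), and the mitochondrial genes mt-Cytb (0.50), mt-Nd5 (0.45), mt-Nd4 (0.38), mt-Co3 (0.37), mt-Atp6 (0.36), mt-Co1 (0.34) and mt-Co2 (0.29). Fmnl2 (0.78), Lta4h (0.59), S1pr4 (0.45), Nfkbia (0.39), 1700047M11Rik (0.38) and Lrrk2 (0.27) were higher as well. Lower were Itga4 (-0.87), Il1rap (-0.54), Tlr4 (-0.45), Parp8 (-0.37) and Gcnt2 (-0.35).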

How the results depend on the processing

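Each site has 3 libraries, and low levels rest on few UMIs (Amelx on 1 UMI over the 3 femoral libraries). The count of genes differing by site, 4, became 20 (8 higher, 12 lower) with library sizes alone in place of TMM, 12 (5 and 7) after thinning to the smallest library, 178 (78 and 100) with DESeq2, 461 (174 and 287) with no filter and 2 (1 and 1) without mitochondrial genes, and it was 3 at a mean of at least 10 CPM. It was 4 for neutrophil-labelled cells, for G1 cells and without the 5% of cells with most UMIs. In the finer clusters, alternatives chosen after seeing the data, it was 4 in the larger and 18 in the smaller. Leaving out single libraries gave 0 to 6 genes. Title numbers did not pair the samples (correlations of same-numbered deviations 0.02, -0.39 and 0.18), and as a replicate block they gave 1 gene by site, 24 genes differing from cluster 1 and 86 from cluster 3. The numbers 6 and 7 in the names of 4 male libraries, whose meaning is not given in the sources used here, had correlations of 0.48 and 0.32, and a block on them gave 1268 genes (733 higher) in those 4 libraries. Differences in site effect, 161 genes against cluster 1 and 117 against cluster 3, became 215 and 118 with an edgeR interaction, 151 and 117 at a prior count of 0.5, and 0 and 0 with the variance trend over the mean difference. That is limma's default, which the planned test implied, and the trend over mean level, behind the 161 and 117, was chosen after seeing the data. Leaving out single libraries gave 25 to 142 and 33 to 267. The site difference in mitochondrial share, 0.197 percentage points, was 0.1003 as a median over cells. Of 2850 pairs of a gene and an alternative, over 151 genes, 2581 kept their direction and side of the threshold, 192 passed it newly, 21 no longer passed and 56, in 21 genes, changed sign. The log2 fold change turned with the block on library numbers for Csta2 (-0.28), Cstdc4 (-0.20), Cstdc5 (-0.53), Cstdc6 (-0.079), Il1r2 (0.60), Stfa1 (-0.16) and Stfa2 (-0.18), and with library sizes alone for Cstb (-0.023), Cstdc4 (-0.019), Stfa2 (-0.0092) and Tmsb4x (-0.017). It turned with no filter for Cstb (-0.024), Cstdc4 (-0.0100), Stfa2 (-0.0012) and Tmsb4x (-0.0059), after thinning for Cstb (-0.030), and with the title block for mt-Atp8 (-0.011). In the smaller finer cluster it turned for Cstb (-0.18), Cstdc4 (-0.020), Stfa2 (-0.25) and Tmsb4x (-0.00065), and in the larger for Cstdc5 (-0.0090). Over the fits without 1 library it ran from -0.36 to 0.26 for Csta3, -0.12 to 0.24 for Cstb, -0.17 to 0.15 for Cstdc4, -0.29 to 0.35 for Cstdc5, -0.10 to 0.41 for Cstdc6, -0.26 to 0.35 for Stfa2, -0.057 to 0.27 for Ctnna3, -0.27 to 0.23 for Ctsc, -0.083 to 0.32 for Cxcr4, -0.50 to 0.34 for Il1r2, -0.092 to 0.17 for Il1rn, -0.11 to 0.34 for Junb, -0.37 to 0.045 for Malat1, -0.021 to 1.10 for Nr4a1, -0.16 to 0.17 for S100a11, -0.023 to 0.37 for S100a9, -0.059 to 0.13 for Tmsb4x, -0.033 to 0.63 for Wfdc21 and -0.32 to 0.57 for mt-Atp8. The cause of these changes was not tested.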
